A study of Arabidopsis thaliana with 9 samples.

Results

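The genes described here were counted in Arabidopsis leaf and in neither floral organ. They are the 202 loci, of 32833 in the deposited count table, that had 0 reads in each of 3 stamen and 3 gynoecium libraries and at least 50 reads summed over 3 leaf libraries. RNA was sequenced from leaf, from stamens (the male group) and from gynoecium (the female group) of the common laboratory accession Col-0, with 3 libraries per organ. All groups carry the same stage label, flower bud differentiation, and the same cultivar, and the labels name no treatment, mutation or plant age. Total RNA was taken with Trizol from leaf and from immature floral buds. Whether the libraries of an organ came from separate plants is not stated, so p-values measure only the spread between these libraries, which may be technical. The counts themselves chose the genes, so the difference between leaf and the floral organs is described for them and not tested.

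Leaves are open to pathogens and herbivores, and Arabidopsis protects them with several systems that recur among these genes. Receptor-like kinases at the cell surface detect microbes or damage, and salicylic acid and the pipecolate pathway carry the resulting signal locally and to distant leaves. Jasmonate and ethylene control a separate arm that includes the defensins, and glucosinolates are sulfur-rich compounds, made from methionine or tryptophan, that release toxins when tissue is chewed.

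Total counts were 16042169 to 17205304 in leaf, 16916596 to 17887733 in stamens and 17248590 to 18756860 in gynoecium. Levels are compared between genes as FPKM, the authors' values corrected for gene length and library total. The organ labels were checked against marker genes. The 6 photosynthesis markers summed to 5976 to 6456 FPKM in leaf libraries, against 554 to 589 FPKM in stamens and 639.8 to 683 FPKM in gynoecium. Floral organ identity markers summed to 6.21 to 6.74 FPKM in leaf, where 6 of 8 were at 0 and SEP1 and SEP3 were counted, against 1069 to 1128 FPKM in stamens and 401 to 421 FPKM in gynoecium. All 5 pollen and tapetum markers were at 0 in leaf, against a sum of 2098 to 2184 FPKM in stamens and 3.43 to 3.83 FPKM in gynoecium. In leaf, 4 of 5 root markers were at 0 and the exception was SCR. Leaf and floral organs differ in cell types, and in bulk RNA fewer cells of a type cannot be told apart from less RNA per cell.

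The 202 loci held 227828 leaf reads, 0.448% to 0.454% of each leaf library. The 6 floral libraries held 106673682 reads in all. With 0 reads there, the level over both floral organs together may be up to 0.0281 CPM, reads relative to all reads in the libraries (3 counts, counting error only). The bound for stamens or gynoecium alone is higher, since each held fewer reads. Whether a step before deposit set low counts to 0 is not given in the sources used here, and these bounds assume that none did. Summed leaf counts ran from 50 to 85414 with a median of 200, 31 loci had at least 1000 reads and 57 had under 100. Mean leaf levels ran from 0.349 to 525 FPKM with a median of 2.67 FPKM, and 41 loci reached 10 FPKM. Most of these genes were therefore weakly expressed in leaf, and a few were abundant. The reference annotation describes 198 of them as protein coding and 4 as non-coding, and 89 have a symbol.

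A count of 0 in all floral libraries was rare among loci with leaf reads. Of 16122 loci with at least 50 leaf reads, 202 (1.25%) had 0 floral reads, 39 had 1 to 3, 82 had 4 to 10, 608 had 11 to 100 and 15191 had more. The share at 0 was 4.76% (57 of 1198 loci) at 50 to 99 leaf reads and 0.396% (31 of 7829 loci) at 1000 or more. Among those 7829 deeply counted loci, more had exactly 0 floral reads (31) than 1 to 3 (11). The 11 just outside the rule on the floral side include AT1G65190, a protein kinase with 17982 leaf reads and 2 in gynoecium, the ion channel gene CNGC11 with 11590 leaf reads and 1 in stamens, and PR2, a glucanase known as a salicylate marker, with 10943 leaf reads and 3 in stamens. On the leaf side, the loci with the lowest sums inside the rule were AT1G36675 with 50 reads and AT1G51820, AT4G29650 and AT5G65320 with 51 reads each. Just outside it were AT3G28600 with 49, AT4G08205 with 48 and WRKY36 with 46, and 317 loci in all had 0 floral and 1 to 49 leaf reads.

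**Figure D1:**
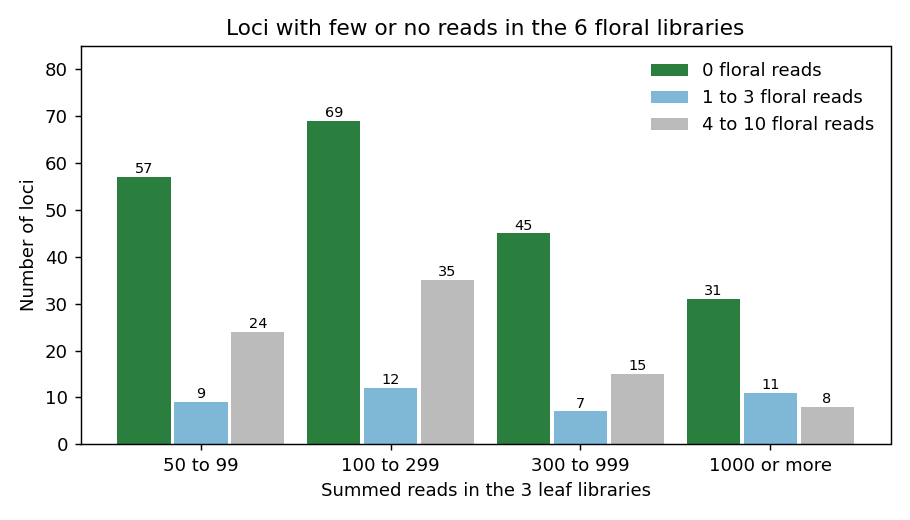
Number of loci (vertical axis) with 0, 1 to 3 or 4 to 10 reads in the 6 floral libraries together, by summed reads in the 3 leaf libraries (horizontal axis). At 1000 or more leaf reads, 31 loci had 0 floral reads and 11 had 1 to 3.

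The most abundant leaf-only transcript was that of ACD6, a membrane protein with ankyrin repeats that promotes cell death and salicylate-dependent defence. ACD6 had 27920, 27970 and 29524 reads in leaf libraries 1 to 3, or 525 ± 18.7 FPKM (SD, n = 3). The neighbouring ankyrin gene AT4G14390 was also counted only in leaf, at 2.72 ± 0.0745 FPKM. The next locus by level was AT1G23130, annotated as a polyketide cyclase and lipid transport protein, with 6462, 7701 and 7483 reads and 507 ± 27.3 FPKM. ACD6 and AT1G23130 together held 47.0% of the reads of the 202 loci, and the next gene, BG3, stood at 96.1 FPKM.

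**Figure D2:**
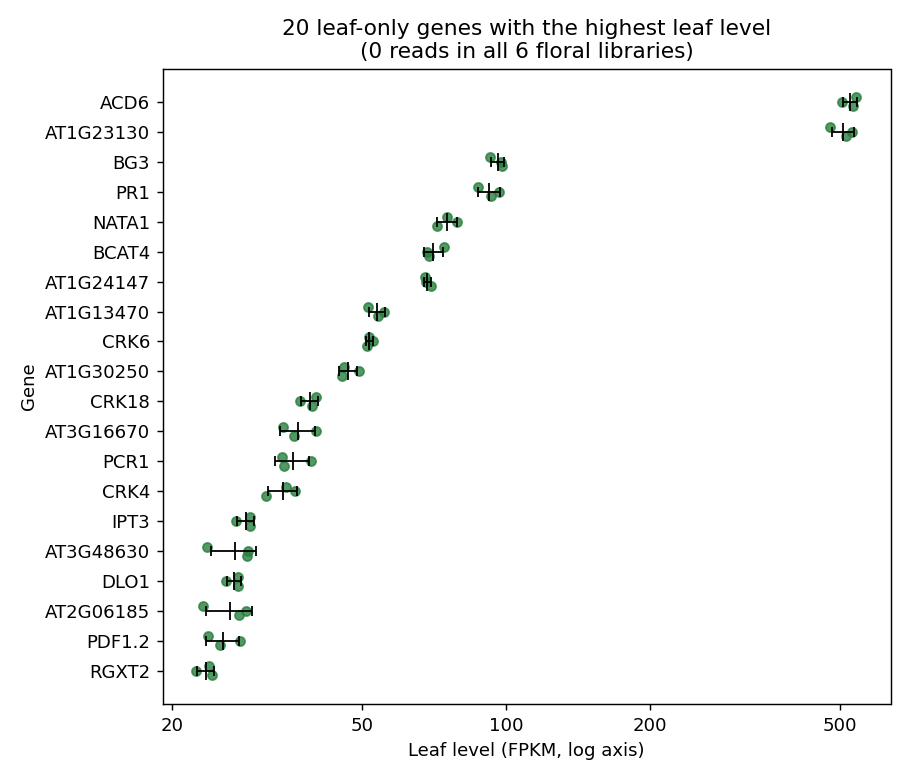
Leaf level in FPKM (horizontal log axis) of the 20 leaf-only genes with the highest mean level; points are the 3 leaf libraries, the vertical tick is their mean and the bar their SD. ACD6 and AT1G23130 lie at 525 and 507 FPKM and the other 18 genes between 23.6 and 96.1 FPKM.

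Several leaf-only genes act in salicylate signalling and systemic resistance. PR1, the classical salicylate marker, had 1262, 1500 and 1442 reads in the leaf libraries (92.3 ± 4.76 FPKM). BG3, a beta-1,3-glucanase of the pathogenesis-related proteins, had 2077, 2351 and 2359 reads (96.1 ± 3.06 FPKM). DLO1, which hydroxylates salicylic acid, had 599, 606 and 643 reads (27.0 ± 0.906 FPKM). These genes were even across the leaf libraries, with SDs of 3.19% to 5.16% of the mean. Genes of the pipecolate pathway and of systemic priming were counted at lower levels. FMO1, which makes N-hydroxypipecolate, had 125, 161 and 132 reads (4.32 ± 0.491 FPKM). ALD1, the aminotransferase that starts pipecolate synthesis, had 18, 23 and 19 reads (0.756 ± 0.0824 FPKM). AZI1, a lipid transfer protein needed for priming in distant leaves, had 19, 16 and 20 reads (1.26 ± 0.163 FPKM), and its neighbour EARLI1 had 83, 78 and 104 reads (5.65 ± 0.816 FPKM). All 4 were thus present in every leaf library, but ALD1 and AZI1 rest on few reads.

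Other salicylate genes were mostly higher in leaf, and most had floral reads. WRKY38, WRKY62 and NIMIN2 had no floral read, but their 22, 25 and 17 leaf reads were under the rule's minimum. All 202 genes aside, 20 genes of the salicylate list could be tested with edgeR's quasi-likelihood test and Benjamini-Hochberg adjustment. Of these, 18 were called higher and 1 lower in leaf than in stamens (median log2 change 3.55, against -0.23 over all 20827 genes tested), and 19 were called higher than in gynoecium (median 2.77, against 0 over all genes), 18 of them with libraries scaled by their totals alone, NPR4 being the exception. In the whole table, 37.9% of genes were called higher and 50% lower in leaf than in stamens, and 40% higher and 42.6% lower than in gynoecium. LURP1, a pathogen-induced gene, had 6452, 7864 and 7130 reads in leaf, against 28, 23 and 20 in stamens and 7, 6 and 7 in gynoecium, with no overlap between organs. That is 368-fold higher in leaf than in stamens (adjusted p = 3.49e-67) and 1750-fold higher than in gynoecium (adjusted p = 6.62e-69, edgeR). PR2 had 3475, 3844 and 3624 reads in leaf, against 3, 0 and 0 in stamens and 0 in each gynoecium library. The gene called lower than in stamens was NPR3, a salicylate receptor, at 14.3 ± 1.15 FPKM in leaf, against 33.5 ± 0.962 in stamens and 23.9 ± 1.18 in gynoecium. It was not called between leaf and gynoecium (adjusted p = 0.117, edgeR), but was lower with library totals alone. NIMIN1, which binds the regulator NPR1, had 8, 25 and 10 leaf reads, against 8, 20 and 6 in stamens, and was not called there (adjusted p = 0.225, edgeR). NPR3, and the genes called lower or not called in the lists below, were named after their values were seen, except those picked by level.

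For the 202 genes the same fit only restates the rule. One gene, AT5G09720, a CorA-like magnesium transporter with 8, 24 and 20 leaf reads, fell under the filter on low counts, and the other 201 were called higher in leaf in both comparisons, beside 37.9% and 40% of all genes tested. Nothing is read from that count, since the genes were chosen on the same difference.

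Among the description groups, cell-surface receptors were the largest with a named function, ahead of other enzymes (21) and oxidoreductases (20). Enzymes were split over several groups and a mixed remainder held 32 genes, so this rank depends on how the groups were drawn. By words in the annotation, 23 of the 202 genes (11.4%) were receptor-like kinases or receptor-like proteins, against 1.9% of all loci with at least 50 leaf reads. Put the other way, 7.49% of the 307 receptor loci at that leaf count had no floral read, against 1.25% of all such loci. Within the set they ranged from AT1G51820, a leucine-rich repeat kinase at 0.349 FPKM, to CRK6 at 51.8 FPKM. Of them, 9 were cysteine-rich receptor-like kinases (CRKs), a family of membrane kinases with roles in immunity and cell death. CRK6 had 2150, 2355 and 2287 reads in leaf (51.8 ± 0.787 FPKM). CRK18 had 1422, 1411 and 1494 reads (38.8 ± 1.55 FPKM) and CRK4 had 1427, 1596 and 1389 reads (34.1 ± 2.4 FPKM). CRK7, CRK21 and CRK5 followed at 12.1 ± 0.821, 10.9 ± 0.989 and 9.7 ± 0.252 FPKM, and CRK24, CRK23 and CRK12 at 5.01 ± 0.274, 1.14 ± 0.299 and 0.561 ± 0.116 FPKM. The CRKs counted only in leaf thus lay between 0.561 and 51.8 FPKM, within the set's range of 0.349 to 525 FPKM.

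Of these 9 genes, 8 belong to a tandem array on chromosome 4. In the count table, 20 of the 22 loci between and including CRK5 and CRK24 are CRKs, 19 of the 20 had leaf reads and CRK20 had none in any organ. Of the 19, gynoecium had 0 reads at 13 and stamens had 0 reads at 8, and those 8 were the leaf-only genes. At the other 5 loci with 0 gynoecium reads, CRK8, CRK13, CRK14, CRK16 and CRK22, stamens had between 15 and 49 reads. Summed over the array, CRK levels were 307 FPKM in leaf, 26.6 FPKM in stamens and 13.7 FPKM in gynoecium. Over the 22 CRKs elsewhere, they were 182 FPKM in leaf, 79.8 FPKM in stamens and 86.4 FPKM in gynoecium. Genes of the array are near copies of each other, and how the counting divided reads that match several of them is not given in the sources used here.

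**Figure D3:**
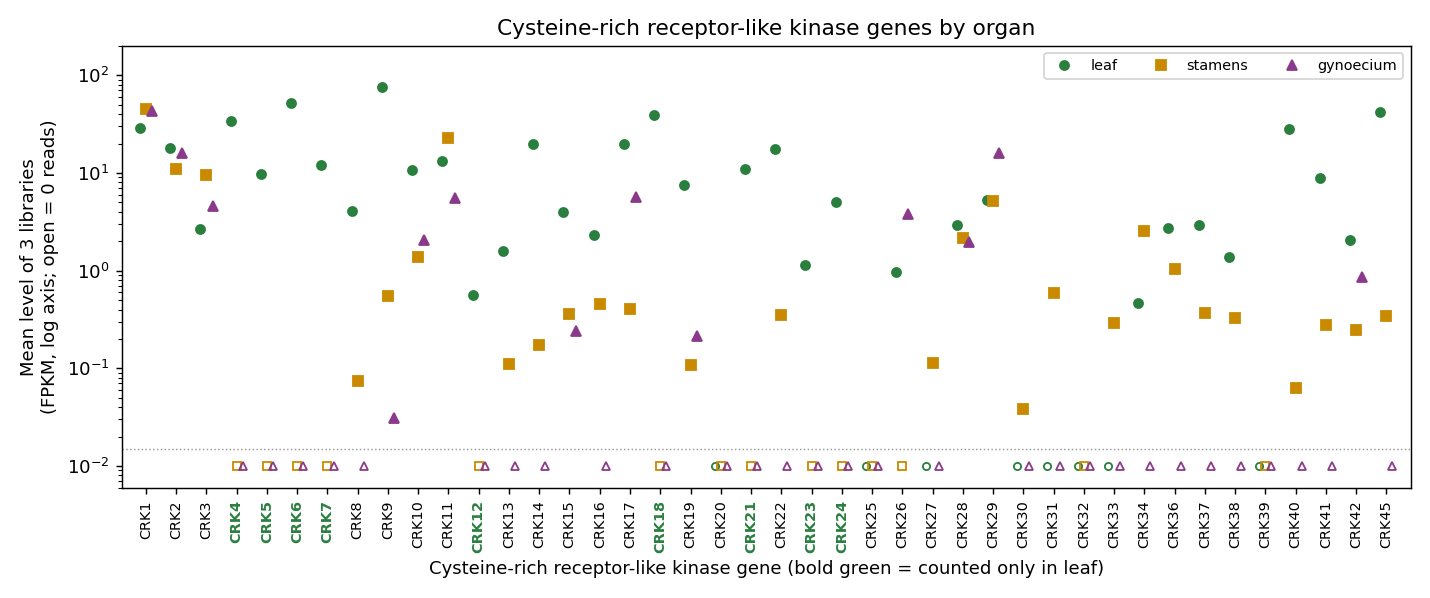
Mean FPKM of 3 libraries (vertical log axis) in leaf, stamens and gynoecium for the 42 CRK genes in the count table; open symbols below the dotted line mark 0 reads. The 9 genes in bold green had leaf reads only, and 12 others with leaf and stamen reads had none in gynoecium.

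Among 26 other CRKs tested, 21 were called higher and 5 lower in leaf than in stamens (median log2 change 3.25), and 21 higher and 2 lower than in gynoecium. The median against gynoecium was 6.73, or 5.41 when the 13 genes at 0 in an organ are set at 3 counts over its libraries. CRK40 had 1402, 1467 and 1564 reads in leaf, against 1, 3 and 6 in stamens (525-fold, adjusted p = 3.02e-52, edgeR) and 0 in gynoecium. CRK26 differed from the rest in its floral pattern, with 27, 39 and 41 reads in leaf, against 0 in stamens and 162, 133 and 153 in gynoecium (log2 change -1.32, adjusted p = 2.68e-09, edgeR). The 5 genes lower in leaf than in stamens were CRK1, CRK3, CRK11, CRK31 and CRK34, and CRK29 was the second gene lower than in gynoecium. With library totals alone, CRK1 and CRK3 were also lower than in gynoecium and CRK29 was no longer higher than in stamens.

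Other receptors and intracellular sensors were counted only in leaf at levels below those of CRK6, CRK18 and CRK4. WAK3, of the wall-associated kinases, a family that binds pectin, had 520, 491 and 567 reads (12.9 ± 0.995 FPKM). Its relatives WAK1 and WAK2 were more abundant in leaf and not quite absent elsewhere. WAK1 had 13331, 13199 and 13332 reads in leaf, against 33, 49 and 40 in stamens and 56, 56 and 61 in gynoecium. That is 400-fold and 386-fold higher in leaf (adjusted p = 1.56e-71 and 3.13e-72, edgeR). WAK4 had 9, 11 and 17 reads in leaf, against 11, 12 and 16 in stamens and 35, 33 and 34 in gynoecium, so the leaf and stamen ranges overlap. Of 7 other WAK genes tested, 5 were called higher, 1 lower (WAKL2) and 1 not called (WAK4) against stamens, and 5 higher and 2 lower (WAKL2 and WAK4) against gynoecium. WAKL22 was among those higher than in gynoecium, but not with library totals alone.

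Receptor-like proteins, which lack a kinase domain, were represented by RLP43 at 6.53 ± 0.864 FPKM, RLP19 at 4.97 ± 0.327, RLP6 at 1.34 ± 0.131, RLP11 at 1.06 ± 0.287 and RLP53 at 0.447 ± 0.0779 FPKM. There were 5 genes with the description of a nucleotide-binding or TIR-domain resistance protein, the class that detects pathogen effectors inside the cell. AT5G46490, of the TIR type, led them with 1041, 1018 and 967 reads (19.7 ± 1.45 FPKM), and the other 4 lay between 2.83 and 3.82 FPKM. They made up 2.48% of the set, against 0.689% of loci with at least 50 leaf reads. Of the glutamate receptor-like cation channels, GLR2.7 had 831, 789 and 842 reads (15.5 ± 0.944 FPKM) and GLR2.5 had 60, 62 and 91 (1.2 ± 0.267 FPKM). Among signalling enzymes, the kinase MKK7 had 12, 40 and 19 reads and the subtilase SBT3.3, which primes immunity, had 41, 86 and 56. Both were highest in leaf library 2 and were among the 5 genes with the largest chi-square over the leaf libraries.

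Of 6 PDF1 defensin genes in the jasmonate and ethylene list, 3 were counted only in leaf and met the rule. PDF1.2, the usual reporter of that arm, had 221, 277 and 251 reads (25.6 ± 2.04 FPKM). PDF1.2c had 79, 97 and 117 reads (10.6 ± 1.73 FPKM) and PDF1.3 had 29, 31 and 31 (2.91 ± 0.0055 FPKM). ORA59, the AP2/ERF factor that activates PDF1.2, had 30, 32 and 27 reads (1.63 ± 0.157 FPKM). PDF1.2b also had no floral read, but its 24 leaf reads were under the rule's minimum. PDF1.4 had 9 reads in leaf, 1 in stamens and 1 in gynoecium, and PDF1.1 had none in any library. PDF1.2 and PDF1.2c lie next to each other and are near-identical, so their separate values are uncertain.

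The jasmonate pathway outside the set was split. Of 13 other genes tested, 9 were called higher and 2 lower in leaf than in stamens (median log2 change 2.29), and 8 higher and 4 lower than in gynoecium (median 1.57). AOC2, an enzyme of jasmonate synthesis, had 1137, 1200 and 1171 reads in leaf, against 6, 4 and 11 in stamens and 9, 9 and 6 in gynoecium. It was 201-fold and 240-fold higher in leaf (adjusted p = 5.59e-51 and 6.84e-53, edgeR). TAT3, a jasmonate-induced aminotransferase, was 252-fold and 588-fold higher, at 184 ± 5.11 FPKM in leaf, against 0.853 ± 0.167 in stamens and 0.487 ± 0.0756 in gynoecium. The jasmonate-responsive JR1 went the other way against gynoecium, with 1328, 1389 and 1368 reads in leaf, against 1554, 1626 and 1586 in stamens and 16292, 14593 and 16024 in gynoecium (log2 change -2.78, adjusted p = 1.98e-57, edgeR). Between leaf and stamens JR1 was not called (adjusted p = 0.107), but was lower with library totals alone. The storage protein gene VSP1 and the thionin gene THI2.1 were lower in leaf than in both floral organs, and LOX3 lower than in gynoecium; with library totals alone, LOX3 was also lower than in stamens and VSP2 lower than in gynoecium.

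Aliphatic glucosinolate synthesis contributed an early enzyme, its regulators and a late enzyme. BCAT4, the aminotransferase that starts methionine chain elongation, had 1726, 1703 and 1725 reads (70.5 ± 3.2 FPKM). The transcription factor MYB29 had 284, 236 and 275 reads (9.13 ± 1.15 FPKM), and its neighbour MYB76 had 45, 38 and 59 (1.83 ± 0.398 FPKM). FMO GS-OX3, which oxidises the side chain, had 341, 387 and 292 reads (8.86 ± 1.27 FPKM). MYB28, the third regulator of this group, was counted in all organs, at 58.8 FPKM in leaf, 2.16 FPKM in stamens and 7.74 FPKM in gynoecium. MYB29 and MYB76 are close copies, and 21.2% of the exon bases of BCAT4 lie under another gene model, which had no read in any library.

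Of 12 other aliphatic genes tested, 9 were called higher and 3 lower (AOP3, FMO GS-OX2 and FMO GS-OX4) in leaf than in stamens (median log2 change 4.55). Against gynoecium 10 were higher (median 3.26), while AOP3 and the myrosinase TGG2 were not called. With library totals alone, TGG2 and FMO GS-OX2 were called lower in leaf than in gynoecium. CYP79F1, which commits elongated methionine to the pathway, had 1661, 1675 and 1694 reads in leaf, against 18, 19 and 19 in stamens (109-fold, adjusted p = 1.29e-53, edgeR) and 0 in gynoecium. ESM1, which steers glucosinolate breakdown, had 2913, 3590 and 3461 reads in leaf, against 2, 1 and 2 in stamens and 22, 24 and 24 in gynoecium. ESM1 was 2280-fold and 237-fold higher in leaf (adjusted p = 4.54e-62 and 4.89e-63, edgeR).

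On the tryptophan side, CYP71A13, an enzyme of camalexin synthesis, had 50, 50 and 66 leaf reads (2.2 ± 0.326 FPKM) and IGMT1, an indole glucosinolate methyltransferase, had 54, 70 and 55 (2.29 ± 0.299 FPKM). Both have close copies in the genome, and 22.1% of the exon bases of CYP71A13 overlap another gene model. Of 10 other genes of the camalexin and indole list tested, 9 were called higher and 1 lower (PYK10) in each comparison, with median log2 changes of 4.22 against stamens and 3.12 against gynoecium. CYP79B3, which feeds both products, had 1454, 1324 and 1419 reads in leaf, against 31, 28 and 34 in stamens and 449, 445 and 456 in gynoecium. It was 55.2-fold and 5.22-fold higher in leaf (adjusted p = 5.65e-52 and 6.38e-42, edgeR). CYP81F3 had 248, 258 and 250 reads in leaf, against 0 in stamens and 147, 123 and 170 in gynoecium. CYP71A12, the copy of CYP71A13, was called higher than in stamens, but not with library totals alone.

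**Figure D4:**
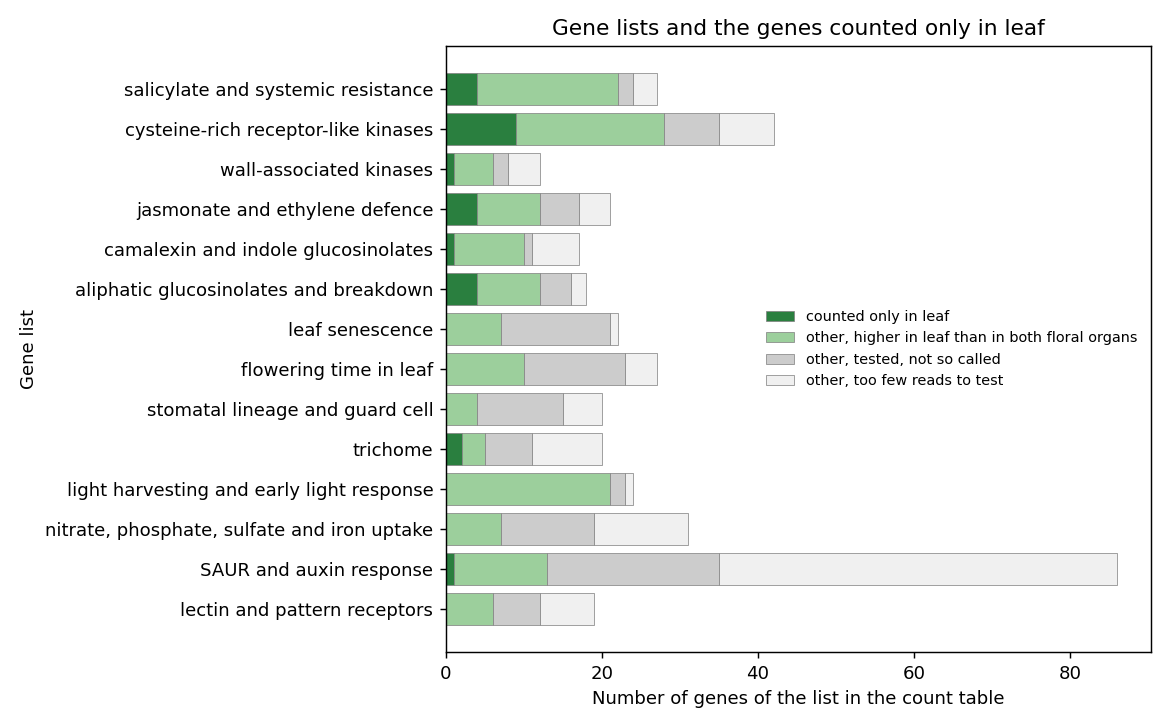
Number of genes (horizontal axis) of each of 14 lists in the count table, divided into genes counted only in leaf, other genes called higher in leaf than in both floral organs, other tested genes and genes with too few reads to test. The 26 leaf-only genes in lists lie in 8 lists, 9 of them in the CRK list and 4 each in the salicylate, jasmonate and aliphatic glucosinolate lists.

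Other enzymes of the set act on amines, hormones, lipids and the cell wall. NATA1, an acetyltransferase that acts on ornithine and other amines, had 1326, 1486 and 1354 reads (75.3 ± 3.5 FPKM). IPT3, which catalyses the entry step of cytokinin synthesis, had 780, 781 and 837 reads (28.5 ± 1.12 FPKM), and CKX4, which degrades cytokinin, had 66, 76 and 88 (1.96 ± 0.221 FPKM). ILL5, related to the hydrolases that release auxin from amino acid conjugates, had 188, 213 and 217 reads (7.99 ± 0.303 FPKM). SAUR6, of the auxin-responsive SAUR family, had 188, 202 and 207 reads (8.44 ± 0.124 FPKM). It was the only SAUR gene in the set, of 86 genes of the SAUR and auxin list in the table. The cytochrome P450 genes CYP71B24 and CYP706A6 stood at 22.3 ± 0.652 and 20.5 ± 0.673 FPKM, the highest of the 5 P450 genes in the set. RGXT2, which adds xylose to the pectin rhamnogalacturonan II, had 634, 638 and 689 reads (23.6 ± 0.957 FPKM). PCR1, a membrane protein known for cadmium resistance, had 511, 632 and 555 reads (35.8 ± 2.89 FPKM). COW1 and PER64, known from root hairs and the root endodermis, had 43, 50 and 60 and 21, 30 and 37 leaf reads; they were singled out after their values were seen.

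Transcription factors made up 18 of the 202 genes and none exceeded 11.9 FPKM. MYB48 was the highest, with 242, 307 and 271 reads (11.9 ± 1.05 FPKM), followed by MYB29 and by TINY2, an AP2 factor of the DREB group, at 6.08 ± 0.457 FPKM. Of the trichome list, the activator GIS had 52, 81 and 82 reads (3.63 ± 0.74 FPKM) and the repressor TCL2 had 24, 31 and 22 (1.49 ± 0.257 FPKM). Trichome markers were low throughout, at 4.08 to 5.88 FPKM summed in leaf, 2.4 to 3.18 FPKM in stamens and 1.76 to 2.92 FPKM in gynoecium, with GL1 at 0 in leaf. Of 9 other trichome genes tested, 5 were called higher and 3 lower (EGL3, TRY and SIM) in leaf than in stamens. The median log2 change was 0.93, or 0.48 with genes at 0 in an organ set at the 3-count bound. Against gynoecium 3 were higher and 3 lower (GL3, EGL3 and SIM), with a median of 0.01, and TTG1 and TRY joined the lower genes with library totals alone. ZFP8, a relative of GIS, had 590, 626 and 591 reads in leaf, against 0 in stamens and 29, 27 and 32 in gynoecium (34.3-fold higher than in gynoecium, adjusted p = 2.61e-42, edgeR).

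Genes without a described function made up 24 of the 202. AT1G24147 led them with 1015, 1092 and 1119 reads (68.5 ± 1.04 FPKM), ahead of AT1G13470 with 1161, 1341 and 1306 reads (53.7 ± 2.01 FPKM). AT1G13470 carries the DUF1262 domain, which 10 loci in the table are annotated with. Of the 5 DUF1262 genes with at least 50 leaf reads, 4 had no floral read. These were AT1G13470, AT1G13480 with 59 leaf reads in all, AT1G13540 with 57 and AT1G13550 with 139. The fifth, AT1G13520, had 181 reads in leaf, 60 in stamens and 0 in gynoecium. A DUF1262 gene outside that stretch of loci, AT1G61600, was the reverse, with 0 reads in leaf, 57 in stamens and 325 in gynoecium. AT1G13490, AT1G13500, AT1G13510 and AT1G13530, within that stretch, had no read in any organ. Of the organs sequenced, 4 closely numbered DUF1262 loci were thus counted only in leaf, while AT1G13520 and AT1G61600 had floral reads. For AT1G13480 and AT1G13540 this rests on sums just over the minimum of 50.

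The 4 non-coding loci were the microRNA precursor MIR167d, whose product targets auxin response factors, at 7.3 ± 0.621 FPKM, and AT2G06185, AT2G06355 and AT3G15536. AT2G06185 at 26.5 ± 2.89 FPKM and AT2G06355 at 12.6 ± 1.65 FPKM lie wholly under other gene models, so their reads cannot be assigned with certainty. In all, 29 of the 202 loci overlap another model, 5 of them over more than 50% of their exon bases. The strand setting of the counting is not given in the sources used here.

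Some leaf-only genes were neighbours. With the loci of the count table placed in their annotated order along each chromosome, 27 of the 202 stood in 13 runs of adjacent leaf-only genes. Several runs joined genes of 1 family, such as CRK5, CRK6 and CRK7, CRK23 and CRK24, MYB29 and MYB76, PDF1.2 and PDF1.2c, ACD6 and AT4G14390, the kinase genes AT5G38240 and AT5G38250, and both DUF1262 pairs. The lipid transfer protein genes AZI1 and EARLI1, which carry different descriptions in the annotation, formed another run. Levels within a run differed widely, as with ACD6 at 525 FPKM beside AT4G14390 at 2.72 FPKM. By chromosome, 54 loci lay on chromosome 1 and 36 to 39 on each of the other 4, with none in the chloroplast or mitochondrial genome.

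The leaf libraries can be compared with each other without using the rule. Averaged over genes, counts differed between leaf libraries by more than counting error. Taken singly, 42 of the 202 genes (20.8%) had a chi-square over 5.99, the 95% point under counting error alone. The chi-square statistic per degree of freedom averaged 2.08 over the 202 genes, against 2.505 over 15920 other loci with at least 50 leaf reads. Under 1000 leaf reads, it averaged 1.7 for 171 leaf-only genes, against 1.66 for 8122 other loci with at least 50. The SD of FPKM had a median of 11.8% of the mean over the 202 genes, 4.51% for those with at least 1000 reads and 25.2% for those with under 100. The highest leaf library was library 1 for 71 genes, library 2 for 70 and library 3 for 61, so no leaf library carried the set. The largest chi-square values over the 3 leaf libraries were in ACD6, AT1G23130, MKK7, CRK4 and SBT3.3. For a given relative spread that statistic grows with read count. ACD6 and AT1G23130 had SDs of only 3.57% and 5.39% of the mean.

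**Figure D5:**
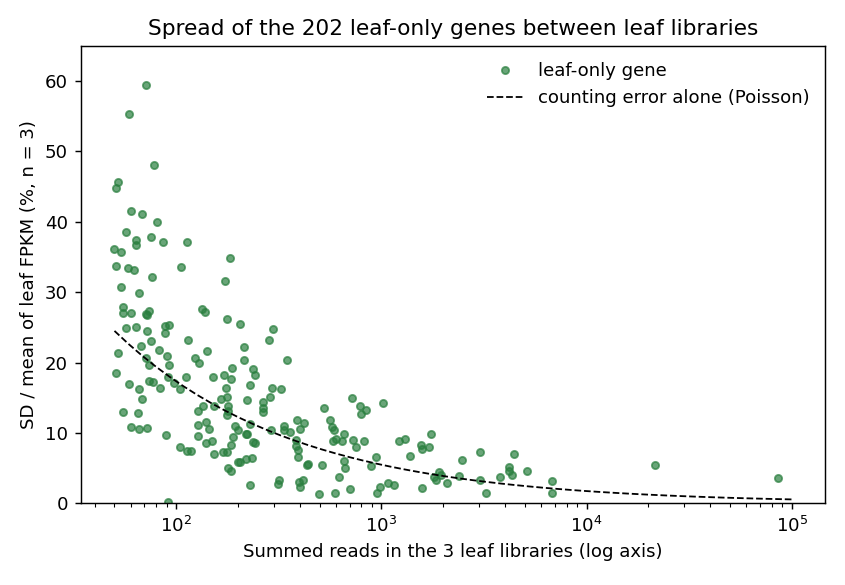
SD of leaf FPKM as a percent of the mean (vertical axis, n = 3 libraries) against summed leaf reads (horizontal log axis); each point is 1 of the 202 genes and the dashed line is counting error alone. The median is 25.2% for genes under 100 reads and 4.51% for genes with at least 1000.

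Under the same rule applied to the other organs, leaf had few organ-only genes compared with stamens. The leaf set held 202 loci, the stamen set 1446 and the gynoecium set 182. Organ-only loci took 0.448% to 0.454% of reads in leaf, 2.94% in stamens and 0.112% to 0.113% in gynoecium. Their median level was 2.67 FPKM in leaf, 4.25 FPKM in stamens and 1.95 FPKM in gynoecium, and 41, 392 and 18 loci reached 10 FPKM in leaf, stamens and gynoecium. The make-up differed as well. Receptor-like genes were 11.4% of the leaf set, 2.07% of the stamen set and 2.2% of the gynoecium set, and F-box, ubiquitin and protease genes were 3.96%, 15.5% and 7.14% of the leaf, stamen and gynoecium sets. The groups follow words in the annotation and are not exact. The F-box, ubiquitin and protease group of the leaf set also took in TBL15, described as trichome birefringence-like. These shares are descriptions and were not tested.

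Photosynthesis, the main work of a leaf, was looked at through a list of light-harvesting and early light genes and through the 6 photosynthesis markers. None of the 24 listed genes in the table, and none of the markers, was counted only in leaf. Other nuclear genes of photosynthesis were not examined as a group. All 23 tested were called higher in leaf than in stamens (median log2 change 3.36) and 21 higher than in gynoecium (median 3.6), LHCB7 and ELIP1 not being called there. With library totals alone, both were lower than in gynoecium and ELIP1 was not called against stamens. LHCB1.2, a light-harvesting protein of photosystem II, had 62838, 71347 and 67838 reads in leaf, against 2752, 2563 and 2481 in stamens and 5502, 5140 and 5028 in gynoecium. Its level was 31.8-fold and 21.6-fold higher in leaf (adjusted p = 1.18e-71 and 1.08e-69, edgeR). The leaf senescence list likewise held no leaf-only gene. Of its 21 tested genes 8 were higher and 13 lower in leaf than in stamens (median -1.18), and 14 higher and 6 lower than in gynoecium (median 1.96). The lists for flowering time, stomata, nutrient uptake, and lectin and pattern receptors also held none. By description, though, the set held lectin kinase genes outside that last list. These were AT3G08870 with 188 leaf reads and the S-locus lectin kinases AT1G61610 with 150 and AT1G61480 with 129. Of 23 flowering genes tested, 13 were called higher and 6 lower in leaf than in stamens (median 1.07), and 14 higher and 7 lower than in gynoecium (median 1.51, or 0.75 with genes at 0 in an organ at the 3-count bound). With library totals alone, the flowering genes were even against gynoecium, 11 higher and 11 lower, and GI, CDF3 and MAF3 turned to lower. Of 15 stomatal genes, 7 were higher and 8 lower than in stamens (median -0.35), and 5 higher and 10 lower than in gynoecium (median -0.78). Of 19 uptake genes, 7 were higher and 11 lower than in stamens (median -2.63), and 12 higher and 2 lower than in gynoecium (median 1.4), where NRT3.1 turned to lower with library totals alone. Of 12 lectin and pattern receptors, 6 were higher and 4 lower than in stamens (median 0.55), and 7 higher and 4 lower than in gynoecium (median 1.73). Of 34 other SAUR and auxin genes tested, 12 were called higher and 19 lower than in stamens (median log2 change -1.1), and 18 higher and 10 lower than in gynoecium (median 0.53, or 0.75 at the 3-count bound). With library totals alone, 14 were higher and 12 lower than in gynoecium, and SAUR50 turned to lower.

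Some genes of those lists had few or no reads in 1 or both floral organs. NRT1.1, a nitrate transporter and sensor, had 2930, 2896 and 2945 reads in leaf, against 1, 0 and 2 in stamens and 2, 0 and 2 in gynoecium. RLP23, the receptor for a peptide of microbial NLP toxins, had 3012, 3202 and 3267 reads in leaf, against 25, 24 and 12 in stamens and 19, 24 and 35 in gynoecium (189-fold and 202-fold, adjusted p = 1.82e-60 and 4.02e-62, edgeR). FT, the mobile flowering signal made in leaf phloem, had 35, 44 and 29 reads in leaf, against 0 in stamens and 11, 8 and 14 in gynoecium. SULTR2;1, a sulfate transporter of the vasculature, had 1288, 1331 and 1457 reads in leaf, against 0 in stamens and 114, 98 and 120 in gynoecium.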

How the data were processed

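The authors deposited whole-number read counts per gene, and FPKM values for the 24400 loci with any count. The submitters' processing notes name Bowtie2 2.2.3, HISAT2 2.1.0, TopHat2, HTSeq 0.6.0 and the TAIR10 genome. Their roles and order, the strand setting, the treatment of reads matching several genes and the annotation release are not given in the sources used here. The FPKM values deposited by the authors equal counts divided by library total and by the exon length of RefSeq TAIR10.1 models within 1 base for 24044 of 24180 loci compared (99.4%), all 202 genes among them. Symbols and descriptions came from that annotation, which matched 32548 of 32833 loci. No coordinates are printed, because the builds differ.

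The 202 genes were found by the rule in the opening. Genes and lists were chosen with earlier results of these data known. Of 408 list entries, 387 were matched. Counts were fitted with edgeR 4.0.16 in R 4.3.3 (TMM scaling, filterByExpr leaving 20827 genes, robust quasi-likelihood, 1 mean per organ over all 9 libraries), with Benjamini-Hochberg adjustment over all genes tested and a threshold of 0.05. TMM factors were 0.815 to 0.817 in leaf, 0.955 to 0.966 in stamens and 1.272 to 1.279 in gynoecium. Folds are not given against an organ with 3 or fewer reads. Named genes are the 20 with the highest leaf level, those in lists, the 3 highest of each description group, those nearest the threshold, those with the most uneven leaf counts, those in neighbour runs, and per list 2 other called genes with the largest change against stamens and 1 uncalled gene. Values are printed for some of these. DESeq2 1.42.0 served as an alternative. Tables and figures used Python 3.11.15 with matplotlib 3.10.9, pandas 2.3.3, scipy 1.17.1 and numpy 2.4.6.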

Additional observations from a re-analysis of the deposited data

How the results depend on the processing

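The number of leaf-only genes was 202, and it was 277 with a leaf minimum of 20 reads, 145 with 100, 201 with at least 10 reads in every leaf library, 216 with up to 1 floral read, 241 with up to 3, and 173 without loci that overlap another gene model. Leaving out each library in turn gave 195 to 213. Counts of genes called higher in leaf were 7738 to 7838 against stamens and 8187 to 8406 against gynoecium when each library was left out. Each of the 90 alternative values run stayed within 1.5 times the main count. With library totals in place of TMM, 6819 genes were higher and 11584 lower in leaf than in stamens (37.1% of calls higher, against 43.1% with TMM), and 5731 higher and 11804 lower than in gynoecium (32.7%, against 48.4% with TMM). That scaling moved the median log2 change of all genes to -0.46 against stamens and -0.55 against gynoecium. Of the 20 genes with the highest FPKM, 15 were among the highest 20 by CPM, which does not correct for length. Same-numbered libraries did not vary together more than others (correlations of deviations -0.052 to 0.054, against -0.041 to 0.05 for other pairs). These correlations run over all genes tested, where counting error can hide a shared effect. They therefore show no pairing by number and cannot exclude it. With the replicate number as a block, 7839 genes were higher than in stamens, 8280 than in gynoecium, and 135 list genes than in both, against 137 without it. Genes with under 100 leaf reads are the least certain, and depth does not show that their floral level is 0.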

Other observations

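In each organ, among well-counted loci, exact zeros in the other organs were more frequent than counts of 1 to 3. Of 7829 loci with at least 1000 leaf reads, 31 had 0 reads and 11 had 1 to 3 in the other 6 libraries. Of 9135 loci with at least 1000 stamen reads, 289 had 0 and 21 had 1 to 3, and of 9935 loci with at least 1000 gynoecium reads, 11 had 0 and 1 had 1 to 3.

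Beyond the receptors already described, the ankyrin repeat family of ACD6 held other loci close to the leaf-only pattern but with floral reads. The ankyrin gene AT4G11000 had 2066 reads in leaf, against 0 in stamens and 93 in gynoecium, and AT4G03450 had 542 in leaf, against 1 in stamens and 0 in gynoecium. The ankyrin gene AT5G54710 was abundant in leaf at 78.4 FPKM, against 0.896 FPKM in stamens and 1.02 FPKM in gynoecium. These loci were chosen after their values were seen.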
